A study of Mus musculus with 4 samples.

Results

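A set of 7 hepatokines, proteins that the liver secretes and whose supply follows fasting or feeding, were followed in mouse liver nuclei: Fgf21, Angptl4, Angptl8, Igfbp2, Gdf15, Inhbe and Fgl1. They were chosen by symbol, as 7 of the 32285 genes in the count matrices, and each symbol had 1 row. Nuclei came from livers of mice fasted for 16 to 24 h (2 libraries) or of fed mice (2 libraries), with no genotype, strain, sex or age given in the labels used here. For each preparation 50 mg of frozen liver from 8 mice was pooled, and it is not said in the labels if both preparations of a state drew on the same animals. The p-values therefore measure the spread between preparations, which may be technical. Values are unique molecular identifiers (UMIs), the count of tagged RNA molecules, summed over the nuclei of a type and given as CPM, counts scaled to 1000000 UMIs of that type.

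The liver sends signals to other tissues through secreted proteins, and several of these are known to follow the nutritional state. Angptl4 and Angptl8 act on lipoprotein lipase, the enzyme that releases fatty acids from circulating triglyceride, and are classically linked to fasting and to feeding respectively. Fgf21 and Gdf15 are hormones of nutrient and cell stress, Inhbe encodes a subunit of activin E, Igfbp2 binds insulin-like growth factors, and Fgl1 is a hepatocyte protein that responds to inflammation and binds the immune receptor Lag3.

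The libraries held 8078755 to 30955600 UMIs, and 29724 nuclei in 20 clusters were kept, of which 18757 in 10 clusters were hepatocyte-like (5401 and 4554 fasted, 5060 and 3742 fed). All 8 hepatocyte markers were detected in them in every library, with summed levels of 8377 to 19354 CPM. Marker lists of other types summed in the same nuclei to 87.0 to 153 CPM for stellate cells, 89.5 to 139 CPM for cholangiocytes, 5.30 to 55.6 CPM for endothelial cells (highest in fed replicate 2) and 2.03 to 17.7 CPM for Kupffer cells. The median hepatocyte nucleus had 2923 and 3240 UMIs in the fasted libraries, 2548 in fed replicate 1 and 1281 in fed replicate 2. Replicates stood apart: most hepatocyte clusters were made mainly of 1 library, and counts of replicate hepatocyte pools scattered beyond sampling noise (chi-square per degree of freedom 97.6 for the fasted pair and 144 for the fed pair). Fed replicate 1 contributed 1788 of the 1800 nuclei of a cluster led by the acute-phase genes Saa2 and Saa1. Pairs of libraries shared 7 to 32 nucleus barcodes.

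Angptl4 and Angptl8 were the members with the clearest separation by feeding state in hepatocytes, in opposite directions, but neither passed the test over all genes. The measured level of Angptl4 was 2.50 times higher in the fasted mean, and that of Angptl8 was 6.11 times higher in the fed mean. Igfbp2, Inhbe and Fgl1 differed more between replicates than between states, and Fgf21 was at the edge of detection. With edgeR's quasi-likelihood test, 0 of the 6 members that passed the low-count filter had an adjusted p under 0.05 (Benjamini-Hochberg over 13989 genes). Of all genes tested 0.00715% did (1 gene), while 951 genes had an unadjusted p under 0.05, 2 members among them. DESeq2 called 161 of 13291 genes (1.21%), Angptl8 among them.

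**Figure D1:**
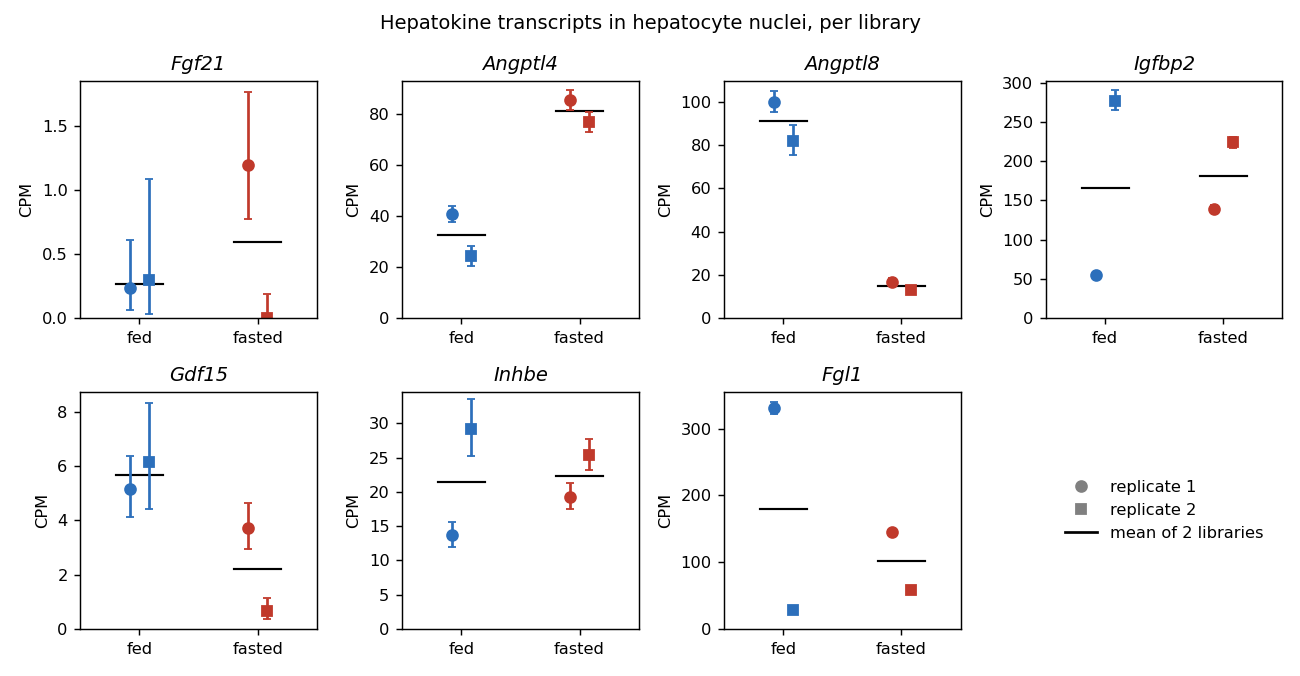
Level of each hepatokine transcript (vertical axis, CPM, each panel from 0) in the pooled hepatocyte nuclei of the fed and fasted libraries. Points are libraries with exact binomial 95% intervals, which cover counting error only, and bars are means of 2 libraries. Angptl4 and Angptl8 separate by state, whereas fed Igfbp2 spans 55.2 to 277 CPM and fed Fgl1 28.8 to 331 CPM.

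Angptl4 (chr17:33773750-33781830, minus strand, mm10) encodes a secreted inhibitor of lipoprotein lipase. In hepatocytes it stood at 85.3 and 76.7 CPM in fasted replicates 1 and 2, and at 40.6 and 24.2 CPM in fed replicates 1 and 2. Both fasted libraries lay above both fed ones. The log2 fold change, fasted over fed, was 1.30 (SE 0.35) with an unadjusted p of 0.00894 and an adjusted p of 0.551 (edgeR, quasi-likelihood test). Leaving out 1 library at a time gave log2 fold changes of 1.03 to 1.64 for Angptl4. Without fed replicate 1 the adjusted p was 0.0335 (edgeR), and the lone fed library was then assumed to vary like the fasted ones.

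Angptl8 (chr9:21835510-21837347, plus strand) encodes a small secreted protein that takes part in the block of lipoprotein lipase after a meal. It stood at 16.7 and 13.0 CPM in fasted replicates 1 and 2, and at 100.0 and 82.0 CPM in fed replicates 1 and 2. The fed libraries were the high ones and the groups did not overlap. The log2 fold change was -2.64 (SE 0.33), with an unadjusted p of 1.6e-04 and an adjusted p of 0.199 (edgeR), against 2.5e-06 by DESeq2. Without fed replicate 1 the edgeR adjusted p was 5.9e-05 and without fed replicate 2 it was 1.8e-05, whereas without a fasted library it was 0.243 or 0.781. The direction was the same in all these fits, with log2 fold changes from -2.80 to -2.50.

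The acute-phase nuclei of fed replicate 1 held part of its Angptl8 signal. In their cluster Angptl8 stood at 172 CPM, and without that cluster fed replicate 1 stood at 61.0 CPM in place of 100.0 CPM, still above both fasted libraries. The log2 fold change was then -2.32 (adjusted p = 0.42, edgeR). Angptl4 was low in that cluster, at 28.8 CPM. Without the cluster, Angptl4 in fed replicate 1 stood at 47.3 CPM in place of 40.6 CPM, still below both fasted libraries. Its log2 fold change was then 1.15 (adjusted p = 0.668, edgeR). Angptl8 lies inside Dock6, a guanine exchange factor gene on the opposite strand, with no shared exon. No source used here says whether counting used the strand, and Dock6 itself stood at 8.53 and 11.4 CPM (fasted) and 19.2 and 25.5 CPM (fed). The part of Dock6 reads in the Angptl8 counts was not tested.

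**Figure D2:**
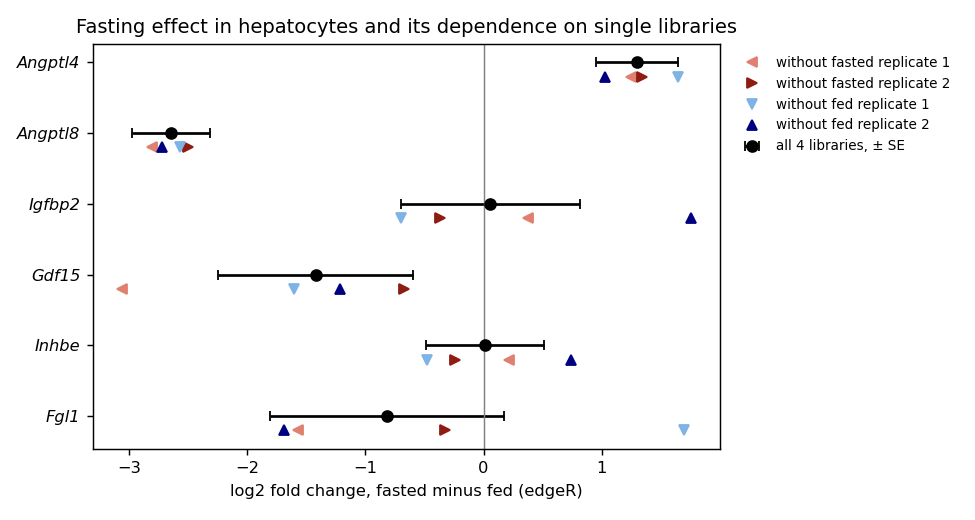
Log2 fold change in hepatocytes, fasted minus fed (horizontal axis), for the 6 members that passed the low-count filter: black points with SE bars use all 4 libraries and coloured triangles leave out 1 library each. Angptl4 stays above 0 and Angptl8 and Gdf15 stay below 0 in each of these fits, while Igfbp2, Inhbe and Fgl1 take both signs.

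Fgf21 (chr7:45613886-45615490, minus strand) encodes the hormone that signals through Fgfr1 and its co-receptor Klb. It gave 25 UMIs in fasted replicate 1, 0 in fasted replicate 2, 4 in fed replicate 1 and 2 in fed replicate 2. These equal 1.19, 0, 0.24 and 0.30 CPM. For fasted replicate 2, a count of 0 allows up to 0.156 CPM (3 counts). The fed values had exact binomial 95% intervals of 0.065 to 0.61 and 0.036 to 1.08 CPM. Fed libraries and fasted replicate 2 could thus not be ordered at this depth. Fgf21 did not pass the low-count filter. The deposited matrices also hold entries stored as 0, at 13.2 to 17.0% of all stored entries. Among the hepatocyte nuclei kept, Fgf21 had 30 such entries (19, 8, 3 and 0 in the same order). Counting each as 1 UMI was among the alternatives, and no source used here says what the stored zeros are.

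The Fgf21 promoter is shown because it holds the core of the C/EBP-ATF response element, TGATGCAA, through which the stress factor Atf4 is known to act on Fgf21. Promoter sequences of 5 members (Angptl8, Fgf21, Gdf15, Igfbp2 and Inhbe) were matched in RefSeq (GRCm38.p6), and 250 bases before each start were searched on both strands. The motifs were chosen after the sequences had been seen. The core was found for Fgf21, Angptl8 and Inhbe, 139, 130 and 181 bases before the start, against 0.791% of all 32851 promoter windows of that length. Capitals mark the core or its reverse complement, 5′ to 3′ on the strand of the gene. For Inhbe only 30 bases are given, since its RefSeq start lies inside the longer GENCODE gene model.
Fgf21 (chr7:45615491-45615740, minus): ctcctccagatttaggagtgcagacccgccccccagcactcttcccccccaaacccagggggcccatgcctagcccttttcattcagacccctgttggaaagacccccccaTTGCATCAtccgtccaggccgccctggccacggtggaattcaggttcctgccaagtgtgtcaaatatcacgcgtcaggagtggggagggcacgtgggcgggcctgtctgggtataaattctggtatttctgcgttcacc
Angptl8 (chr9:21835260-21835509, plus): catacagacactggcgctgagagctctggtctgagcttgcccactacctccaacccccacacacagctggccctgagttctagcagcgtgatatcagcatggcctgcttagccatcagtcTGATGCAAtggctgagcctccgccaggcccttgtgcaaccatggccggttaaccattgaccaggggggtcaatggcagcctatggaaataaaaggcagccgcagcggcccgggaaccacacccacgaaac
Inhbe (chr10:127352011-127352040, minus): catcctctttcTTGCATCAtgcatgtccac

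The E-box CACGTG, the element of basic helix-loop-helix factors such as Usf1, was found in the window of Fgf21 and in 1 of 2 windows each of Gdf15 and Igfbp2, as in 6.02% of all windows. The direct repeat DR1, 2 copies of AGGTCA with 1 base between them, to which Ppara and Rxra can bind, was in none of the 7 windows of the 5 members and in 0.033% of all. The motifs shared no bases in these windows. A match is a run of letters and not a measured binding site. Of the 3 members with the response element core, Angptl8 was high in both fed libraries and Inhbe in the second replicate of each state. Fgf21 was at the edge of detection. Whether the element acts on these genes here was not tested.

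Gdf15 (chr8:70629393-70632456, minus strand) encodes a stress hormone that acts through the hindbrain receptor Gfral. It gave 78 and 13 UMIs in fasted hepatocytes and 87 and 41 in fed ones, or 3.72 and 0.68 CPM against 5.18 and 6.16 CPM. Both fasted libraries lay below both fed ones, but fasted replicate 1 was closer to the fed libraries than to its own replicate. The log2 fold change of Gdf15 was -1.42 (SE 0.82; adjusted p = 0.825, edgeR). It ran from -3.06 without fasted replicate 1 to -0.68 without fasted replicate 2. Groups that did not overlap were thus seen for 3 of the 6 tested members (Angptl4, Angptl8 and Gdf15), and for 36.3% of all 13989 genes tested.

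Inhbe (chr10:127348857-127354411, minus strand) encodes the inhibin beta E chain, which forms activin E. In hepatocytes the fasted libraries held 19.3 and 25.4 CPM and the fed libraries 13.7 and 29.1 CPM. The fed libraries enclosed the fasted ones. Its log2 fold change was 0.01 (SE 0.50; adjusted p = 0.998, edgeR). The antisense gene Gm47200 covers the Inhbe model without a shared exon and stood at 29.6 and 17.4 CPM (fasted) and 20.8 and 14.6 CPM (fed); the part of its intronic reads in the Inhbe counts was not tested.

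Igfbp2 (chr1:72824503-72852474, plus strand) encodes a carrier of insulin-like growth factors. It stood at 139 and 224 CPM in fasted and at 55.2 and 277 CPM in fed replicates 1 and 2. The lowest and the highest library were both fed, and the log2 fold change was 0.06 (SE 0.76; adjusted p = 0.997, edgeR). Without fed replicate 2 it was 1.76 (adjusted p = 0.0176), and without fed replicate 1 it was -0.70. Without fasted replicate 2 it was -0.37, so the sign for Igfbp2 turned with single libraries of either state.

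Fgl1 (chr8:41191434-41215156, minus strand), the hepatocyte ligand of Lag3, showed the widest spread between fed libraries. It stood at 145 and 58.5 CPM in fasted and at 331 and 28.8 CPM in fed replicates 1 and 2. The log2 fold change was -0.82 (SE 0.99; adjusted p = 0.974, edgeR). It was 1.70 without fed replicate 1 (adjusted p = 0.0365) and -1.68 without fed replicate 2 (adjusted p = 0.0209). Acute-phase transcripts had a like order over the libraries: 20 such genes, a list added after the data were seen, summed to 3452 and 2296 CPM in the fasted libraries against 6877 and 2015 CPM. In the cluster led by Saa2 and Saa1, Fgl1 reached 618 CPM. Without that cluster fed replicate 1 stood at 177 CPM, above the other libraries by a smaller margin, and the log2 fold change was -0.04.

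The share of hepatocyte nuclei with a transcript was compared after each nucleus was thinned to 1500 UMIs, which left 4805 and 4220 fasted and 4338 and 1542 fed nuclei. Shallower nuclei were left out: 596 and 334 fasted, 722 and 2200 fed. Angptl4 was seen in 11.5 and 11.9% of fasted and in 6.41 and 3.96% of fed nuclei. Angptl8 was seen in 2.93 and 2.25% of fasted and in 13.2 and 11.7% of fed nuclei. For both genes the state with the higher CPM also had the larger share of nuclei. Share and CPM come from the same counts, so their match is no separate evidence. Unthinned, Angptl4 shares were 25.3, 24.5, 12 and 3.96%, and those of Angptl8 were 5.92, 5.01, 20.5 and 11.6% (fasted 1, fasted 2, fed 1, fed 2).

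The variance of thinned Angptl8 counts over their mean (Fano factor) was 1.08 and 0.98 in fasted and 1.48 and 1.26 in fed nuclei. The thinned means were 0.031 and 0.023 in fasted and 0.173 and 0.141 in fed nuclei, so the factors were not compared at equal means. Up to 10 UMIs of Angptl8 were counted in 1 nucleus of fed replicate 1. For Angptl4 the factor lay between 1.03 and 1.11 in all libraries. Fgl1 was seen in 32.1% of thinned nuclei of fed replicate 1 and in 4.02% of fed replicate 2, with 17.0 and 7.77% in fasted. Igfbp2 was seen in 7.24 and 28.0% of fed and in 16.8 and 22.3% of fasted nuclei. Inhbe was seen in 2.12 to 4.73%, Gdf15 in 0.095 to 0.85% and Fgf21 in at most 0.21% of thinned nuclei. For Fgf21 such shares rest on too few nuclei to order the libraries.

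Hepatocytes differ along the lobule, from the portal vein, where blood enters, to the central vein. Each scored nucleus was placed by 12 pericentral minus 11 periportal landmark genes, and nuclei of each library were cut into 3 equal groups, compared with library as a block. Angptl8 was the 1 member called: it was lower in the pericentral than in the periportal zone, with a log2 difference of -0.46 (SE 0.13; adjusted p = 0.0271, edgeR). Of all 12333 genes tested, 15.8% were called along this axis. The call was lost without fed replicate 1 (adjusted p = 0.207), without fed replicate 2 (0.116) and with nuclei thinned to 1000 UMIs for the score (0.0709).

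With zones cut within each library, the Angptl8 difference along the lobule was seen in the fed libraries. From the periportal through the middle to the pericentral zone it stood at 104, 109 and 74.2 CPM in fed replicate 1 and at 121, 81.9 and 59.7 CPM in fed replicate 2. It stood at 16.4, 16.8 and 16.3 CPM in fasted replicate 1 and at 13.7, 11.9 and 13.2 CPM in fasted replicate 2, so the fasted libraries were close to level. The test of that difference between states gave a log2 value of 0.64 (unadjusted p = 0.00798, adjusted p = 0.364, edgeR), and it passed only without fed replicate 1 (adjusted p = 0.0499). Of all genes tested 0.446% were called for that interaction, and 0 of the 6 members were, with 3 members at an unadjusted p under 0.05. Zones cut within a library need not hold the same lobule positions in each library. With bins set over all libraries, the periportal bin held 1850 and 1824 fasted and 1172 and 123 fed nuclei. The pericentral bin held 1482 and 1094 fasted and 1450 and 942 fed nuclei. Of the 12 listed periportal landmarks, 10 had hepatocyte log2 fold changes above 0 and 2 below. The difference between states was not tested for any member with bins set over all libraries.

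Inhbe had the opposite order in the fed libraries. It stood at 9.40, 10.8 and 19.2 CPM in fed replicate 1 and at 22.0, 24.5 and 46.5 CPM in fed replicate 2, so its pericentral level was 2.04 and 2.11 times the periportal one. In fasted replicates the ratio was 1.13 and 1.08. The Inhbe values of fed replicate 2 rest on 31, 38 and 70 UMIs from the periportal to the pericentral zone. Over all libraries the log2 difference was 0.45 (SE 0.16; adjusted p = 0.0727), and without fasted replicate 2 it was 0.63 (adjusted p = 0.0264). The difference between states was -0.90 on the log2 scale (SE 0.26; unadjusted p = 0.00215, adjusted p = 0.195, edgeR), with fits that left out 1 library between -0.94 and -0.86 and none of them called.

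**Figure D3:**
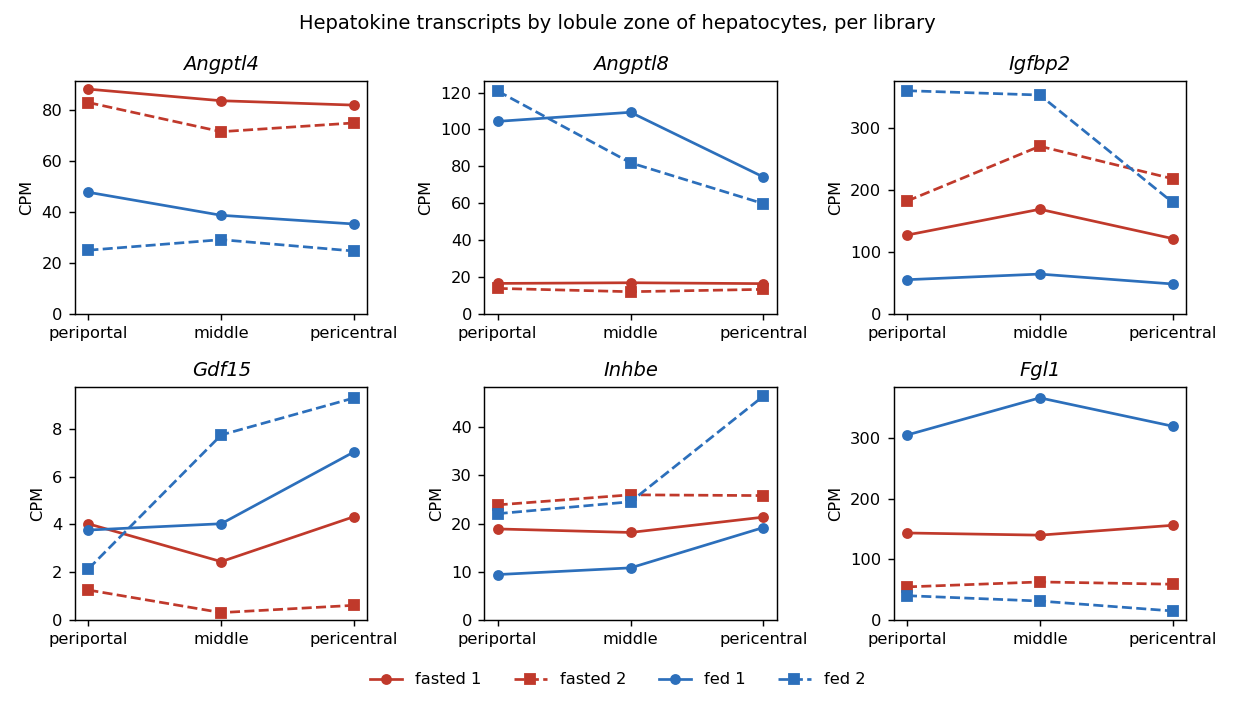
Level (CPM) of 6 hepatokine transcripts in the periportal, middle and pericentral zone of scored hepatocyte nuclei, with zones cut within each library. Each line is 1 library (red fasted, blue fed, solid replicate 1, dashed replicate 2). Angptl8 is lowest and Inhbe highest in the pericentral zone of both fed libraries, whereas the fasted lines are close to level for both genes.

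Igfbp2 stood at 360, 353 and 180 CPM from the periportal to the pericentral zone of fed replicate 2, and at 54.9, 64.0 and 48.0 CPM in fed replicate 1. In the fasted libraries it was highest in the middle zone, at 169 and 271 CPM. Its difference along the lobule was -0.22 (log2) over all libraries. The difference between states was 0.74 (adjusted p = 0.548, edgeR), and it passed without fasted replicate 1 (0.88, adjusted p = 0.00245) and without fed replicate 1 (1.11, adjusted p = 1.0e-06) but was 0.29 without fed replicate 2. Angptl4 was -0.22 (log2, adjusted p = 0.119, edgeR) and Fgl1 was -0.01 along the lobule. For Fgl1 the pericentral level was 1.09 and 1.08 times the periportal one in fasted replicates 1 and 2. The ratio was 1.05 in fed replicate 1 but 0.37 in fed replicate 2, from 56, 48 and 22 UMIs (periportal to pericentral). Gdf15 was at 0.52 with few counts, and Fgf21 was not tested.

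In other cell types no member was called, in 18 tests of members over 5 types (endothelial, Kupffer or macrophage, stellate, cholangiocyte and B or plasma), of which 4 had an unadjusted p under 0.05. Of all genes, 0% were called in B or plasma and in Kupffer nuclei, 0.041% in stellate, 0.0502% in endothelial and 0.126% in cholangiocyte nuclei. Nuclei of these types carried hepatocyte transcripts. The summed level of 16 hepatocyte genes such as Alb and Apob was 31.1 to 90.9% of that in hepatocytes of the same library, over all other types. Median depths there were 722.5 to 1152 UMIs. Hepatocytes held 86.1 to 93.9% of each member's UMIs and 83.2% of all UMIs in named types.

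In endothelial nuclei the fasted libraries held Angptl4 at 38.9 and 38.3 CPM and the fed ones at 11.6 and 19.5 CPM. The log2 fold change there was 1.53 (SE 0.59; adjusted p = 1.0, edgeR). In Kupffer nuclei it stood at 51.3 and 56.8 CPM (fasted) against 21.5 and 9.30 CPM (fed), and in stellate nuclei at 51.3 and 42.7 against 16.9 and 0 CPM. The values of fed replicate 2 rest on 3 endothelial, 1 Kupffer and 0 stellate UMIs. By the floor of 3 counts, the count of 0 allows up to 30.8 CPM. Both fasted values were above that of fed replicate 1 in each of these types, while the intervals of fed replicate 2 (4.02 to 56.9, 0.24 to 51.8 and up to 37.9 CPM) reached or approached the fasted values. Angptl8 in endothelial nuclei stood at 10.1 and 5.74 CPM (fasted) against 25.9 and 13.0 CPM (fed), with a log2 fold change of -1.45 (SE 0.64). The difference of that effect from the one in hepatocytes was 1.16 (SE 0.48; adjusted p = 0.706, edgeR), and 0 of 30 such member tests were called. Genes called for such a difference made up 0.00789% of those tested for cholangiocytes, 0.0243% for B or plasma, 0.194% for stellate, 0.305% for Kupffer and 0.408% for endothelial nuclei.

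Where a type in a library held at least 10 UMIs of a member, the member's level as a share of that in hepatocytes was below the share of the 16 hepatocyte genes in 39 of 54 cases. Angptl8 stood at 23.0 to 60.1% of its hepatocyte level in 5 such cases and Angptl4 at 28.5 to 108% in 13. The highest value was Igfbp2 in B or plasma nuclei of fed replicate 2, at 192% of hepatocytes from 17 UMIs, where the hepatocyte genes stood at 88.4%. Inhbe in Kupffer nuclei of fed replicate 1 stood at 123% from 11 UMIs, against 54.3%. The part of carried hepatocyte RNA in the members' values in other types was not tested.

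**Figure D4:**
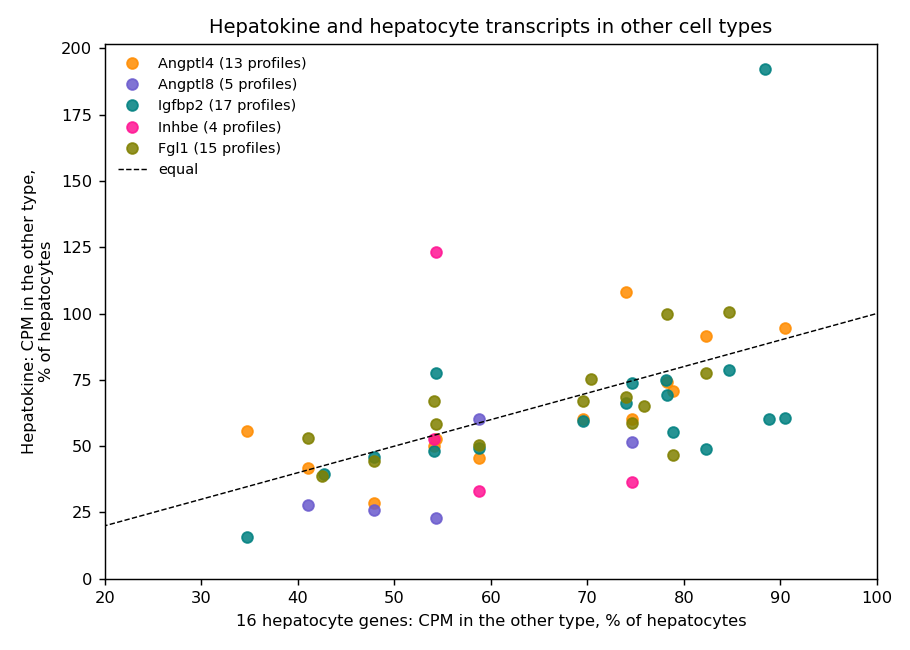
Each point is 1 member in 1 non-hepatocyte type of 1 library with at least 10 UMIs: its CPM as a percentage of hepatocytes of that library (vertical) against the same percentage for 16 hepatocyte genes (horizontal). Of 54 points, 39 lie below the dashed line of equal percentages, and Igfbp2 in B or plasma nuclei of fed replicate 2 lies highest at 192%.

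By mean level over 4 libraries, Angptl8 and Fgl1 stood highest in hepatocytes, while Angptl4, Igfbp2 and Inhbe came next after a type with few UMIs. Angptl8 averaged 52.9 ± 44.6 CPM (SD, n = 4) there and 27.4 ± 25.8 in Kupffer nuclei, and Fgl1 averaged 141 ± 136 CPM and 102 ± 106 in T or NK nuclei. Angptl4 averaged 64.6 ± 73.8 CPM in T or NK nuclei from 30 UMIs, 56.7 ± 29.0 in hepatocytes and 45.3 ± 36.8 in B or plasma nuclei. Igfbp2 averaged 199 ± 224 CPM in B or plasma nuclei, from 67 UMIs, and 174 ± 97.3 in hepatocytes. Fed replicate 2, with 1 such UMI in 6 T or NK nuclei and 17 UMIs in 24 B or plasma nuclei, set both orders: without it, an average chosen after seeing the data, Angptl4 stood at 34.0 CPM in T or NK nuclei and 67.5 in hepatocytes, and Igfbp2 at 88.5 CPM in B or plasma nuclei and 139 in hepatocytes. Neighbours in these orders lay within 1 SD of each other, and the SD includes the feeding states.

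Factors known to act on the members, other secreted liver proteins, and receptors were read in the same hepatocyte fit, as lists written with earlier results of these data known. Of 25 regulators tested 0 were called, with 10 log2 fold changes above 0 and 15 below, and a median of -0.25 against -0.01 over all genes (0.19 without fed replicate 2). The sterol and lipogenic factor Srebf1, which insulin is known to induce, stood at 15.7 and 15.9 CPM in fasted and at 99.7 and 142 CPM in fed (log2 fold change -2.98, adjusted p = 0.199, edgeR). Its groups did not overlap. Among the 25 regulators, 5 were higher and 7, Srebf1 among them, were lower in fasted without overlap. Of all genes tested, 36.3% had groups that did not overlap. A link of Srebf1 to Angptl8 was not tested. The glucose-responsive factor Mlxipl had a log2 fold change of -1.47, the fasting coactivator Ppargc1a 1.42 and the unfolded-protein factor Xbp1 -1.06, and none was called.

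Of 25 relatives tested (of 30) 0 were called, 12 were above and 13 below 0, and the median was -0.10, with both signs among the alternatives. The activin chain Inhba had a log2 fold change of -1.32 and Lcn2, an inflammatory carrier protein, -2.29. Lcn2 was high in fed replicate 1 alone, at 15.8 CPM against 0.30 to 2.81 in the other libraries, and turned to 0.49 without the acute-phase cluster.

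Of 22 receptors and partners tested (of 27) 0 were called, with 9 above and 13 below 0 and a median of -0.18. The largest values were -1.44 for the betaglycan gene Tgfbr3, -1.07 for Fgfr3, -0.89 for the activin receptor Acvr2b and -0.77 for Lpl, the lipase itself, which stood at 0.47 to 1.65 CPM. The median of this list was 0.40 without fed replicate 2.

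Among 23 tested targets of Ppara, the receptor through which fasting is known to act on Angptl4 and Fgf21, 1 was called. In that list 22 log2 fold changes were above 0, with a median of 1.04 against -0.01 over all genes. The list was written with earlier results of these data known, so these counts are no separate evidence. The called gene was Cyp4a14, a fatty acid hydroxylase, which rose from 4.64 and 7.06 CPM in fed to 913 and 889 CPM in fasted hepatocytes (log2 fold change 7.24, SE 0.46; adjusted p = 0.0412, edgeR). It was also the 1 gene called among all, and its call was lost with RLE scaling (adjusted p = 0.0516), with stored zeros counted as 1 (0.0857) and with all filtered nuclei (0.210). Angptl4, which is not on that list, had a log2 fold change of 1.30, and a link of Angptl4 to Ppara was not tested. Of 13 tested targets of the integrated stress response (of 18), to which Fgf21, Gdf15 and Inhbe are known to respond, 0 were called, 8 were above and 5 below 0 and the median was 0.20. Ddit4, a brake on mTOR, stood at 4.05 and 9.98 CPM in the fasted libraries against 1.13 and 0.30 CPM in the fed ones. The Ddit4 value of fed replicate 2 lay below the floor of 3 counts, 0.45 CPM there. Trib3, a stress pseudokinase, stood at 9.58 and 9.41 against 4.52 and 17.1 CPM. Both genes were named after their values were seen.

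The genes most like each member were found from the correlation of log2(CPM + 1) over 12 hepatocyte profiles (4 libraries by 3 lobule zones) among 9415 genes. Zones of a library share its depth and preparation, so these are descriptions. For Angptl4 they were the noncoding Gm47689 (Pearson's r = 0.989) and Sardhos (0.982), and Insyn2a (0.981). For Angptl8 they were the chondroitin synthase Chsy3 (0.987), Dennd5a (0.986) and Mup14 (0.986), a major urinary protein gene with near-identical copies whose counts are uncertain. Among the genes most like Igfbp2 were Cmtm8 (0.966) and the urate transporter Slc2a9 (0.961).

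Fgl1 was most like Rpe (0.989), the translation initiation factor gene Eif2s1 (0.986) and Sarnp (0.983). Inhbe was most like Bcl9 (0.954), Bcl7a (0.951) and Cd82 (0.940), and Gdf15 like the nucleoporin gene Seh1l (0.954), Brip1 (0.930) and the clock repressor Nr1d2 (0.917). Being chosen for likeness over these libraries, such genes had to share the order of the member: Sardhos stood at 132 and 106 CPM in fasted against 51.1 and 26.7 in fed hepatocytes, Chsy3 at 454 and 436 against 852 and 861 CPM, and Slc2a9 at 119 and 162 against 59.1 and 241 CPM. Between members, the correlation was -0.880 for Angptl4 with Angptl8, -0.864 for Inhbe with Fgl1, -0.839 for Igfbp2 with Fgl1 and 0.642 for Igfbp2 with Inhbe over the same profiles.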

How the data were processed

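Single nuclei from pooled frozen livers were captured with 10x v3.1 chemistry, per the labels. The authors used Cell Ranger 6.0 with mm10, per the submitters' processing notes; intron and strand settings are not given in the sources used here. Deposited values are UMI counts per gene and nucleus. Kept nuclei had 500 or more genes and no more than 5% mitochondrial UMIs. Scrublet's automatic threshold marked 2011, 0, 1 and 1 nuclei (fasted 1, fasted 2, fed 1, fed 2) and had not worked, so the highest scores were removed at 0.8% per 1000 barcodes. Nuclei were clustered (scanpy 1.11.5; 2007 variable genes without the members, 30 components, Leiden resolution 1.0) and named from marker lists, so types are "-like". Counts were summed per library and type (at least 20 nuclei in each library). They were tested with edgeR 4.0.16 (TMM, filterByExpr, robust quasi-likelihood, adjusted p under 0.05). The hepatocyte fit was also run on simulated counts with the same dispersion for all genes. DESeq2 1.42.0, other scaling, filters, thinning and left-out libraries were alternatives. Intervals and floors cover counting error only.

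The members and lists were chosen with earlier results of these data known. Named were all members, genes past the threshold, the 4 largest log2 fold changes of the relatives, receptors and regulators, and the 3 genes most like each member that passed the filter; Ddit4, Trib3 and Dock6 were named after their values were seen. Some genes that this rule names are not reported here. Gene models are GENCODE M21.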

Additional observations from a re-analysis of the deposited data

How the results depend on the processing

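Of 548 alternative values for 82 results, 421 were rated the same, 64 moved, 35 became stronger, 6 became weaker and 22 reversed. For fold changes, same means the same direction and side of the threshold, and stronger or weaker means a call gained or lost. Counts of calls, shares of nuclei and mean levels were rated the same or moved by their distance from the main value. Members called in hepatocytes numbered 1 with DESeq2 and without the low-count filter, 2 with the replicate block and 0 to 3 when 1 library was left out; calls over all genes were 0 with RLE scaling, with stored zeros counted as 1 and with all filtered nuclei, 161 with DESeq2, 275 without the filter, 188 with the replicate block and 3 to 694 when 1 library was left out. The replicate numbers share no stated batch: deviations of same-numbered libraries correlated at 0.427 over genes, which with 2 pairs does not establish pairing, and the block gave adjusted p-values (edgeR) of 0.00446 for Angptl8 and 0.0423 for Angptl4. Of the PPAR-alpha targets 1 was called, against 7 with DESeq2, 6 without the filter, 6 with the replicate block, 0 with RLE scaling and 8 without either fed library. Along the lobule 0 members were called with thinning to 1000 UMIs, where 1958 of 12378 genes were called. With 1 library left out 0 to 2 members were called along the lobule, where 1385 to 1883 of 11918 to 12121 genes were. For the lobule difference between states, such fits leave 1 library in a state, and their calls are not counted here. When 1 library was left out, log2 fold changes in hepatocytes ran from -0.70 (without fed replicate 1) to 1.76 (without fed replicate 2) for Igfbp2, from -0.48 (without fed replicate 1) to 0.74 (without fed replicate 2) for Inhbe, from -1.68 (without fed replicate 2) to 1.70 (without fed replicate 1) for Fgl1 and from -3.90 (without fasted replicate 1) to 2.32 (without fed replicate 1) for Lcn2. The same ranges were -0.033 to 1.81 for Angptl8 in Kupffer nuclei against hepatocytes, -0.42 to 0.013 for Igfbp2 and -0.079 to 0.074 for Fgl1 along the lobule, and -0.11 to 0.29 for Angptl4 along the lobule between states. Other reversals in hepatocytes were -0.054 with at least 1000 genes, -0.11 with all filtered nuclei and -0.063 after thinning for Igfbp2. For Inhbe, whose value lay near 0, they were -0.019 with RLE scaling, -0.0044 without doublet removal, -0.084 with at least 1000 genes, -0.18 with all filtered nuclei, -0.091 after thinning and -0.0028 without the acute-phase cluster, an alternative added after seeing the data that also turned Lcn2 to 0.49. Fgl1 along the lobule was 0.031 with thinning to 1000 UMIs and 0.050 with bins set over all libraries. For reversals that do not leave out a library or cluster, the cause was not tested. Fed replicate 2, with the fewest UMIs, limits Fgf21, Gdf15 and the levels in other types.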
